A study of Caenorhabditis elegans with 2 samples.

Results

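The regions described are peaks of the MCD-1 protein whose highest point, the summit, lay just inside a protein-coding gene of Caenorhabditis elegans, close to its annotated 5′ end. They were taken from the conservative peak list of both replicates, which holds 3903 peaks on the nuclear chromosomes of the ce11 genome build. A summit was called promoter-proximal when it fell between 1000 bp upstream and 200 bp downstream of an annotated 5′ end, and 2102 summits did so. Of these, 219 lay at the nearest 5′ end or less than 200 bp downstream of it, or 10.4%, and they belong to 219 different genes. The rule used position and list membership, and no signal value. The samples were 2 biological replicates of whole worms of strain RW12215, which carries st12215[mcd-1::TY1::EGFP::3xFLAG] on chromosome II, an insertion made with CRISPR that fuses the mcd-1 product to the TY1 epitope, EGFP and 3xFLAG. The worms were young adults of 65 hours, synchronised as starved L1 larvae after bleaching, and the chromatin was sonicated to a size range of 200 to 800 and precipitated with an antibody to GFP. The design has 1 group and no second condition, so every value is a description. With 2 replicates the smallest two-sided exact p is 0.5. The deposited peak lists give no read numbers, so the depth behind each peak is unknown. The replicates are labelled as biological, and whether the worms were grown as separate cultures is not stated.

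MCD-1 is a zinc finger protein of C. elegans, first found as a modifier of programmed cell death and also linked genetically to the synMuv B genes. Chromatin immunoprecipitation of a tagged protein recovers DNA near the places where that protein sits, and the summit is the caller's best estimate of the centre of such a place. Annotated 5′ ends of worm genes need a caution that matters for these regions. Many worm messenger RNAs lose the first stretch of the transcript and receive a spliced leader in its place, and then the annotated 5′ end is the site of that splice, not the start of transcription. Many genes also lie in operons, where a downstream gene follows closely behind another gene of the same strand and shares its promoter.

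Strong members often carried the 5 letters GAGCG close to the summit, and in most of the strongest these letters stood at a fixed spacing from TTGC. To show this, the 10 strongest members with GAGCG within 50 bases of the summit are printed, leaving out those of the first chromosome. Each is a 30-base window around the match nearest the summit, on the gene strand, read from the RefSeq sequence of WBcel235, which is the ce11 build. Capitals mark GAGCG, or CGCTC where it is read on the other strand, and TTGC where it follows after 3 bases, or GCAA where it precedes CGCTC by 3 bases.
rab-18: caagtGCAAgtgCGCTCcatCGCTCtcttt
smu-2: gtggtGCAAgtgCGCTCtgttgcggatttt
skpt-1: agatttgcggtgGAGCGcgtTTGCattgca
nstp-10: caattatcagtaGAGCGcatTTGCatggat
Y55F3BR.1: ttgtcaatggggCGCTCttgcatttccaat
daf-15: aaaagtgcaacgGAGCGcacTTGCacgaat
nbet-1: cgaatgcatgccCGCTCcaatgagaaagtc
K10B3.5: tgtatGCAAgtgCGCTCcaccgacaattcc
snrp-40.1: aaaatgtaaacgCGCTCcaccgcattgcat
cyn-8: tgcgcGCAAatgCGCTCtactgacaaaacg

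The windows of rab-18 (chrIII:1080718-1080747, minus strand) and skpt-1 (chrIII:5448390-5448419, minus strand) overlap annotated untranslated exons, as does that of smu-2 (chrII:3482405-3482434, plus strand). The nstp-10 window (chrV:9549661-9549690, minus strand) is intronic, with no untranslated exon annotated in it. The daf-15 window (chrIV:9386216-9386245, plus strand) lies inside the first coding exon. The windows of Y55F3BR.1 (chrIV:874874-874903, plus strand), nbet-1 (chrIV:5209560-5209589, plus strand), K10B3.5 (chrX:3106285-3106314, minus strand), snrp-40.1 (chrX:11299712-11299741, minus strand) and cyn-8 (chrX:8911275-8911304, plus strand) overlap untranslated exons. In nstp-10 and daf-15 no base within 50 of the summit is annotated as untranslated, so the summit base is printed with all 50 bases on either side, with the same use of capitals. They lie at chrV:9549598-9549698 on the minus strand and chrIV:9386180-9386280 on the plus strand.
nstp-10: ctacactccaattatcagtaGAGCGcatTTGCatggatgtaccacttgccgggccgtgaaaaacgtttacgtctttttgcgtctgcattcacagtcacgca
daf-15: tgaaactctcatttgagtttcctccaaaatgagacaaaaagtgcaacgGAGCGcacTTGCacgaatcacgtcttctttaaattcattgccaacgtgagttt

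Some members lay in the first coding bases of a gene whose annotated 5′ end looks like a splice site of the spliced leader. This was not particular to members: TTTCAG stood before the 5′ end at 13.2% of them and at 13.3% of all protein-coding genes. For these, 30 bases across the 5′ end are printed on the gene strand, from 12 bases before it, for the 3 strongest members in a coding exon with TTTCAG in the 10 bases before the 5′ end and a start codon within 12 bases after it. The first chromosome was left out again. Capitals mark TTTCAG, the letters of a worm splice acceptor, and the annotated start codon ATG. The F53A3.7 window is chrIII:1951514-1951543, the nuo-5 window chrV:2698960-2698989 and the exos-1 window chrIII:11009031-11009060, all on the plus strand.
F53A3.7: cgaattTTTCAGaATGctccgctcagcagt
nuo-5: ttgcaaTTTCAGagcaccATGcatcgcgtc
exos-1: aaccacTTTCAGctcagaaaATGctcgccg

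By the choice of these genes, their first coding bases follow TTTCAG closely. Their summits lay 68 bp, 26 bp and 104 bp past the 5′ end. The 3 strongest members outside the first chromosome with no GAGCG within 50 bases are shown for contrast, as 30 bases on the gene strand with the summit base as the single capital. The hrpu-1 window is chrIV:15039709-15039738 on the plus strand, the rpi-2 window chrIV:1711256-1711285 on the plus strand and the reps-1 window chrV:18990438-18990467 on the minus strand.
hrpu-1: acacgccaagcgcaCgagaaacgcgtcagc
rpi-2: atattctgcgggagCctcgaacaatgagct
reps-1: aatcgcgccagtcaAccccctttgcgcatc

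Summits became sparser past the 5′ end. The 50 bp just upstream of the 5′ end held 188 summits, and the first 50 bp inside held 84. The next bins of 50 bp inside held 57, 45 and 33 summits. In finer bins, 46 summits lay 0 to 19 bp inside, 24 at 20 to 39 bp and 22 at 40 to 59 bp. The densest bin, from 150 bp to just over 100 bp upstream, held 266. Per 100 bp, 110 summits lay in the first 200 bp inside, 439 in the 200 bp upstream and 126 in the 800 bp beyond those. The median member lay 75 bp past the 5′ end. Most member peaks still reached across it: 192 of 219 peaks (87.7%) spanned the 5′ end itself, and 163 (74.4%) spanned the annotated start codon. For 142 members the recorded width was a fixed 370 bp with the summit in the middle. At nearly all distances in the window such a peak reaches the 5′ end by its width alone.

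**Figure D1:**
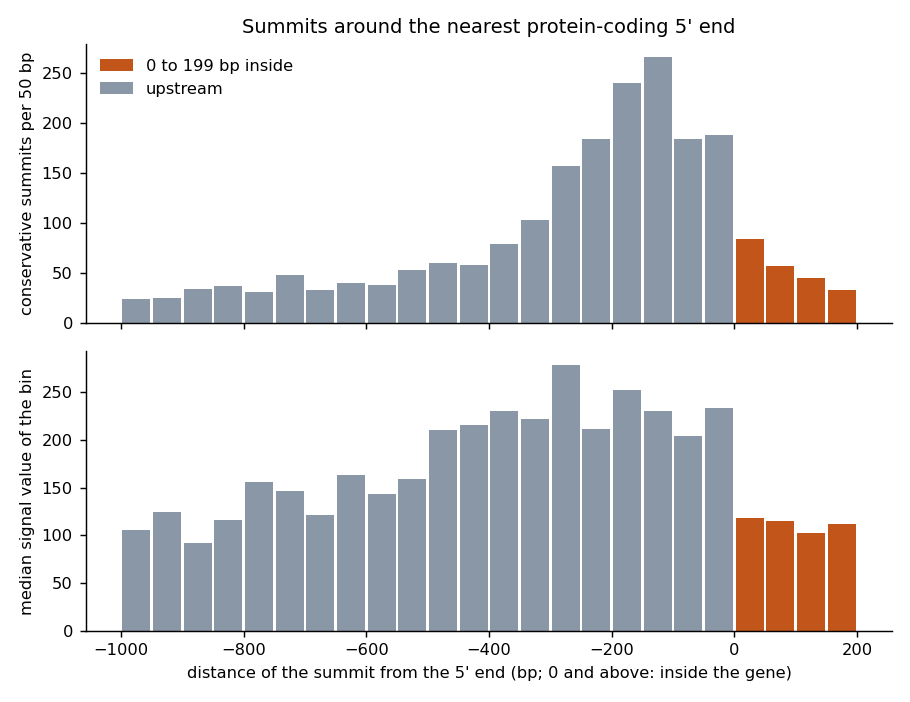
Number of conservative summits (upper axis) and their median deposited signal value (lower axis) in bins of 50 bp of distance from the nearest protein-coding 5′ end, with bins inside the gene in orange and upstream bins in grey. The count goes from 188 summits in the last upstream bin to 84 in the first inside bin, and the median signal from 234 to 118.

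Members were weak peaks for a promoter region. The deposited signal value had a median of 115 among members, with quartiles of 83.7 and 185 and a range of 2.02 to 5506. The medians were 232 for the 878 summits 1 to 200 bp upstream and 189 for the 1004 summits farther upstream, to 1000 bp. The median signal was 234 in the last 50 bp upstream and 118 in the first 50 bp inside, then 115, 103 and 112 in the following bins. In finer bins it was 150 at 0 to 19 bp inside, 121 at 20 to 39 bp and 86 at 40 to 59 bp. The next such bins had 108 and 122, so part of the fall lay inside the gene. Of the members, 79 (36.1%) reached the median signal of the whole conservative list, 148, against 61.9% of all promoter-proximal summits. The 25 strongest conservative peaks held 1 member, the 100 strongest held 2 and the 400 strongest held 10.

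The same order was seen in each replicate's own data. For this, each conservative peak was matched to a peak of a replicate's ranked list that overlaps it, taking the one of nearest summit, and its signal was divided by the median over all conservative peaks in that replicate. The resulting multiple had a median of 0.828 in replicate 1 and 0.797 in replicate 2 over the members, or 0.812 ± 0.0223 (SD, n = 2). Summits 1 to 200 bp upstream had medians of 1.66 and 1.43 (1.54 ± 0.165), and the farther upstream summits had 1.31 and 1.23 (1.27 ± 0.0605). The members' median was thus 0.529 ± 0.0419 of that of summits 1 to 200 bp upstream and 0.641 ± 0.013 of that of the farther summits, lower in both replicates. Right at the boundary, members 0 to 49 bp inside stood at 0.574 of summits 1 to 49 bp upstream in replicate 1 and at 0.575 in replicate 2. Each difference exceeded the spread between the replicates, which is the only error available.

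The letters GAGCG, searched on both strands in the summit base and the 50 bases on either side of it, were present in 63 members, or 28.8%. Windows at the same distances inside all 19973 protein-coding genes held it in 7.08%. The share was 39.4% at summits 1 to 200 bp upstream and 35.3% at those farther upstream. Over all conservative peaks it was 31.8%. The members thus had it less often than the upstream summits, about as often as the whole list and more often than gene starts at large. GAGCG was taken from an earlier report on these same data, so its excess over gene starts at large is no independent result. The median GC content was 48.5% in member windows, 46.5% and 49.5% at the nearer and farther upstream summits and 37.6% in the windows of all genes, and its part in the shares was not tested. The 74 matches in members lay a median of 18 bp from the summit, and 48 of them (64.9%) were within 25 bp. They were read on the gene strand in 36 cases and on the other strand in the rest.

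Much of the difference between strong and weak GAGCG members followed a spaced form, GAGCG with TTGC after any 3 bases. This form was chosen after the sequences printed above had been read, so the strongest members helped to choose it. It was present on either strand in 24 members (11%), against 0.19% of windows at the members' distances in all protein-coding genes. It was found in 16.2% of summits 1 to 200 bp upstream and 11.6% of those farther upstream. Over all conservative peaks the share was 10.5%, so it was not particular to the members. Of the GAGCG matches in members with enough window beside them, 24 of 73 were followed by TTGC at this spacing, or 32.9%. The share was 29.7% over all conservative peaks and 2.68% in the windows of all genes. The longer form ending in TTGCA was present in 17 of the 24 members.

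Members with the spaced form had median multiples of 2.79 in replicate 1 and 2.35 in replicate 2 (2.57 ± 0.31, n = 2). Members with GAGCG but not the spaced form had 0.739 and 0.788 (0.764 ± 0.0346), and the 156 members without GAGCG had 0.793 and 0.73 (0.761 ± 0.0441). The first group therefore stood 3.37 ± 0.212 times above the members without GAGCG, and the second at 1.01 ± 0.104 times, within its replicate spread. Among members whose sequence is not printed above, 17 had the spaced form, with medians of 2.24 and 1.42, and the ratio to members without GAGCG was 2.82 in replicate 1 and 1.95 in replicate 2. Both ratios stayed above 1, but they differed between the replicates more than those over all members did. At summits 1 to 200 bp upstream the same ratio was 4.37 and 3.53 for the spaced form and 1.48 and 1.51 for GAGCG without it. The members with the spaced form stayed below those upstream summits with it, whose median multiples were 5.55 and 4.1.

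**Figure D2:**
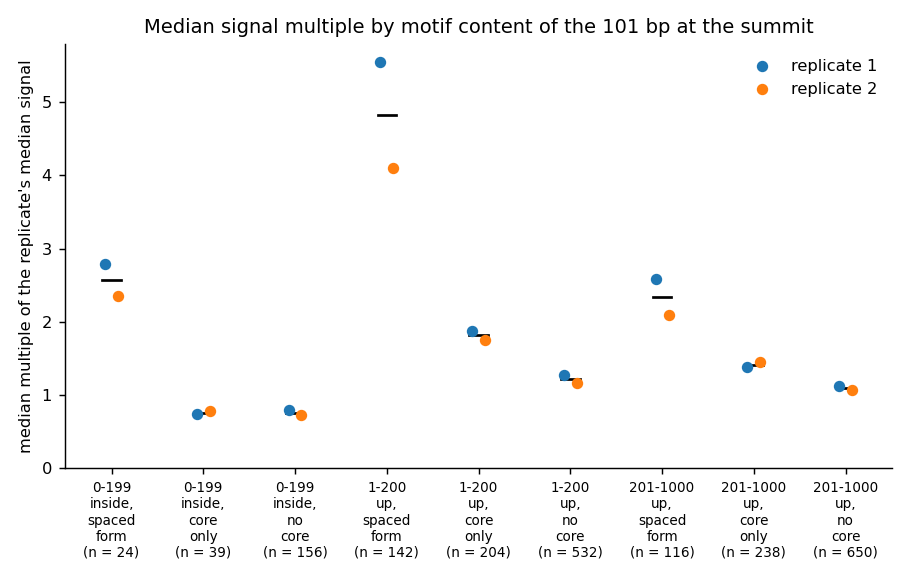
Median signal multiple (signal over the replicate's median across conservative peaks) for summits split by motif content of the window at the summit, for members (inside) and both upstream classes, where core is GAGCG and the spaced form is the core followed after 3 bases by TTGC. Points are replicates 1 and 2 and the bar is their mean; inside the gene the core alone sits with no core, at 0.764 and 0.761, and the spaced form at 2.57.

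The summits with the spaced form lay mostly in untranslated exons. Of the 24 members with it, 18 had their summit in an untranslated exon, 4 in an intron and 2 in a coding exon, namely daf-15 and vps-26. Its GAGCG lay a median of 11 bp from the summit, compared with 23.5 bp for GAGCG without the spacing, and 21 of 24 matches were within 25 bp. Both replicates' own thresholded lists held 21 of the 24. The weakest was cec-3, which encodes a chromodomain protein that binds methylated histone H3, with multiples of 0.436 and 0.631.

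Of 12 further motifs searched in the same windows, TTNNCGC was in 31.5% of members and 12.4% of the windows of all genes, TGACG in 20.5% and 12.6%, and GAGAGA in 14.6% and 5.43%. The shares at summits 1 to 200 bp upstream were 38%, 21.3% and 19%, and over all conservative peaks 30%, 17.1% and 20.7%. TTTGAA, in 16% of members, TATAAA, in 5.02%, and GATAA, in 13.7%, were less frequent than in the windows of all genes, at 23.8%, 10.8% and 21.8%. Over all conservative peaks they were in 16.6%, 3.74% and 13.3%. These are shares of letters in windows of unlike GC content. CCGCCC was found in 4.11% of members and 1.65% of the windows of all genes, CACGTG in 3.2% and 1.75%, and TTTTTTT in 6.85% and 14.5%. TTCGAA was found in 4.11% and 6.03%, GAANNTTC in 4.57% and 6.73%, and ACTACA in 3.65% and 4.06%.

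The place of the summit in the gene model separated stronger from weaker members. Of the 219, 99 (45.2%) lay in a coding exon of the nearest gene, 94 (42.9%) in an exon but not in coding sequence, called untranslated here, and 25 (11.4%) in an intron. The remaining member, at F55C5.17, lay past the 3′ end of that very short gene model. Past the annotated start codon lay 119 summits, or 54.3%. Members in untranslated exons had a median signal of 157 and median multiples of 1.07 and 1.01 (1.04 ± 0.0397, n = 2). Members in coding exons had a median signal of 98.4 and multiples of 0.706 and 0.663 (0.685 ± 0.03), or 0.656 ± 0.00382 of the former. Intronic members were in between, at 0.788 and 0.753.

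**Figure D3:**
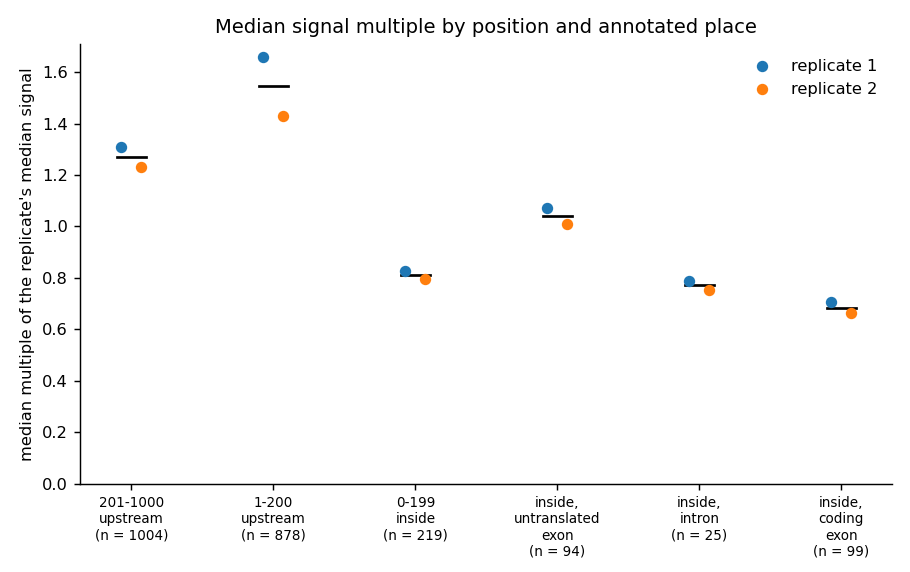
Median signal multiple of summits upstream of the 5′ end, of all members, and of members by annotated place; points are replicates 1 and 2, and the bar is their mean. Members in untranslated exons (1.04) lie above those in introns (0.77) and coding exons (0.685), and all 3 lie below the upstream classes.

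The order was the same in both ranges of distance examined. Within 0 to 49 bp of the 5′ end, coding-exon members stood at 0.65 of untranslated-exon members in replicate 1 and 0.689 in replicate 2, and from 50 bp onward at 0.592 and 0.586. Among members without GAGCG, 59 in untranslated exons had medians of 0.999 and 0.873, and 79 in coding exons had 0.688 and 0.658, a smaller difference than over all members. Among the 55 strongest members, 70.9% of summits were in untranslated exons and 20% in coding exons. Among the 55 weakest the shares were 27.3% and 61.8%.

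**Figure D4:**
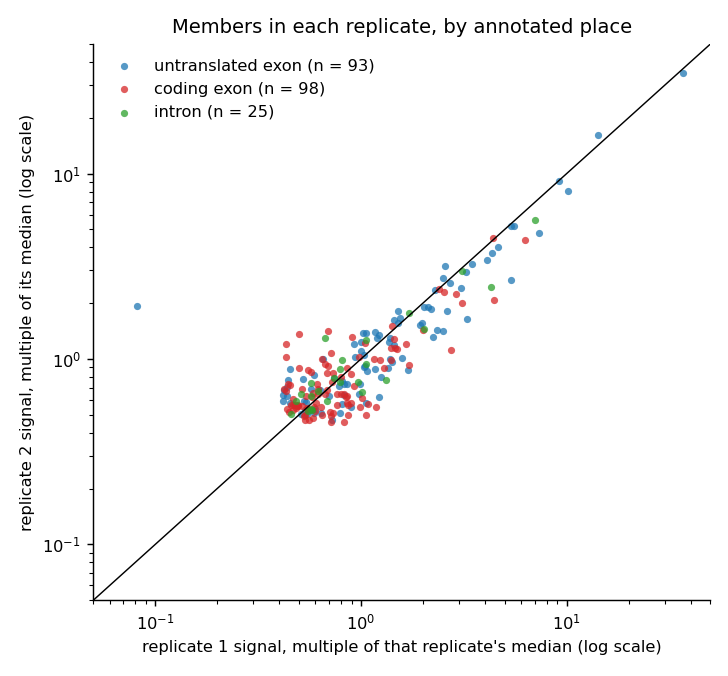
Signal multiple of each member in replicate 1 (horizontal, log scale) against replicate 2 (vertical, log scale), coloured by annotated place, with the line of equality; members matched in both replicates are shown. Coding-exon members crowd below a multiple of 1 in both replicates, the far point at the upper right is ints-4 (36.8 and 34.8), and the point far from the line is gsa-1 (0.0813 and 1.93). The matched summits of gsa-1 lay on opposite sides of the 5′ end in the replicates.

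Members were often the start of a gene that closely follows another gene of the same strand. In 111 of 219 (50.7%), a protein-coding gene of the same strand ended within 500 bp before the 5′ end or overlapped it, against 20.2% of all protein-coding genes. The share was 20.6% at genes with a summit 1 to 200 bp upstream and 12.2% at those with a summit farther upstream. The median gap of these members was 104 bp. A gap of 50 to 150 bp, the range around that median, was present at 70 members (32%), against 6.93% of all protein-coding genes, 2.51% of the genes with a summit 1 to 200 bp upstream and 2.89% of those with one farther upstream. This range was chosen after the gaps had been seen. It was the arrangement at 51 of 99 coding-exon members (51.5%) and at 12 of 94 untranslated-exon members (12.8%). Closely spaced genes of this kind include neighbours within operons, whose membership is not given in the annotation used.

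The gap did not separate strong from weak coding-exon members. The 51 with a gap of 50 to 150 bp had median multiples of 0.713 and 0.649, and the 31 with no gene ending within 500 bp had 0.618 and 0.69, an order that changed between the replicates. Untranslated-exon members with no such gene, 63 in number, had 1.07 and 1.19, and the 12 with a gap of 50 to 150 bp had 0.956 and 0.954.

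Other marks of a processed 5′ end differed less. AG, the last bases of a splice acceptor, stood right before the 5′ end at 72 members (32.9%), against 27.6% of all protein-coding genes, 35.9% at genes with a summit 1 to 200 bp upstream and 53.4% at those with one farther upstream. TTTCAG ended within 10 bp before the 5′ end at 29 members (13.2%), against 13.3% of all protein-coding genes. The letters shown for exos-1 were thus no more frequent than elsewhere. They were more frequent at the genes of the nearer and farther upstream summits, at 17.5% and 29%. The start codon was annotated at the very 5′ end, with no untranslated base, at 39 members (17.8%), against 23.5% of all protein-coding genes. That share was lower at the genes of the nearer and farther upstream summits, at 8.31% and 11.2%. Another annotated transcript start was present in the gene at 96 members (43.8%), against 27.4% of all protein-coding genes and 42.3% and 37.1% at the nearer and farther upstream summits. It lay past the summit at 80 members (36.5%), a median of 320 bp beyond it, and at 29 members it started within 200 bp. For those members the summit was inside the longest gene model and upstream of a shorter transcript. When the start of every transcript was used, 209 of the 219 stayed members and 10 became upstream summits.

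Some members also lay near the start of a divergent gene. The window of a gene on the opposite strand also held the summit at 44 members (20.1%), against 47.2% of summits 1 to 200 bp upstream and 17.8% of those farther upstream. These 44 were stronger than the members as a whole, with median multiples of 1.34 and 1.15. At 53 members (24.2%) another conservative summit lay within 1000 bp upstream of the same 5′ end, whichever gene that summit was nearest to. The shares were 8.66% and 13.8% at the genes of the nearer and farther upstream summits. At those genes the same stretch already holds the summit of the class itself, and a further one was counted. The shares are therefore not alike in measure, and no share over all genes was computed. Some of the other summits upstream of members belong to other genes: the one before unc-50 was the member at unc-69. The strongest such summit exceeded the member's signal in 42 of 53 cases, and the median ratio of its signal to the member's was 3.21. These cases include members of signal under 20, described further on. At nduc-2, named for this large ratio after its values were seen, the summit 814 bp upstream had a signal of 1786 and the member 207. A same-strand gene overlapped the 5′ end of nduc-2, so that summit need not be its own. A tRNA gene lay within 200 bp of 2 members.

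By chromosome, 54 members were on I, 28 on II, 52 on III, 35 on IV, 32 on V and 18 on X. The shares on I to V were 24.7%, 12.8%, 23.7%, 16% and 14.6%. Over all promoter-proximal summits they were 22.2%, 17.1%, 19.8%, 16.6% and 15.2%. The X share of 8.22% compared with 7.06% of summits 1 to 200 bp upstream and 11.1% of those farther upstream. It was 11% over all conservative peaks and 13.7% over all protein-coding genes. X members had median multiples of 0.631 and 0.748, and autosomal members 0.852 and 0.797.

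The strongest member was at ints-4. Its product belongs to Integrator, a complex that processes small nuclear RNA ends and attenuates transcription. The ints-4 peak (chrI:13663113-13663675) had a signal of 5506, the rank of 8 in the conservative list, and its summit lay 21 bp inside an untranslated exon. The multiples were 36.8 in replicate 1 and 34.8 in replicate 2 (35.8 ± 1.41). GAGCG was absent from its window, which made it the exception among the 12 strongest members. At rab-18, a small GTPase of membrane traffic, the summit lay 29 bp inside with 3 GAGCG matches and multiples of 14.2 and 16.1. These were the members among the 100 strongest peaks.

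The list of splicing and snRNP proteins held 4 members among its 28 promoter-proximal summits (14.3%), beside 10.4% over all. At smu-2, a splicing factor, the multiples were 9.13 and 9.15, and the summit was 3 bp inside on the conservative list but 1 bp and 6 bp upstream in the replicates, so it sat on the 5′ end itself. At snrp-40.1, named for a protein of the U5 small nuclear ribonucleoprotein, they were 4.64 and 4.02, with the summit 15 bp inside. The others were prp-39, an intronic member with 0.456 and 0.504, and lsm-6, whose signal of 2.02 was the lowest of all members.

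The other strongest members had varied functions. At daf-15, the worm Raptor of the TOR complex 1, the summit lay 22 bp past the 5′ end in coding sequence, with multiples of 6.29 and 4.36, the highest among coding-exon members. At nstp-10, named as a nucleotide sugar transporter, the summit was 188 bp inside, in an intron, with 7.04 and 5.6 and replicate summits at 188 and 190 bp. At skpt-1 the summit lay 13 bp inside, with 10.1 and 8.1. At nbet-1 the multiples were 5.56 and 5.23, at 82 bp, and at cyn-8, a cyclophilin, 4.35 and 3.75, at 4 bp. The replicates differed more at mtg-1, with 5.37 and 2.68, and at tag-30, an intronic member at 171 bp, with 4.28 and 2.43. At unc-69, a coiled-coil protein required for axon outgrowth, they were 3.46 and 3.27, at 24 bp.

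Small GTPase and vesicle coat genes held 3 members among 23 promoter-proximal summits (13%), and vacuolar ATPase and sorting genes 4 among 26 (15.4%), beside 10.4% over all. Besides rab-18, these were sec-61.A, the channel of protein entry into the endoplasmic reticulum, with 1.55 and 1.67, and sec-10, an exocyst subunit, with 0.827 and 0.457. At vps-26, a retromer subunit, the summit was 17 bp into the coding sequence with multiples of 2.53 and 2.31, and the spaced form was present. At vha-2, a membrane subunit of the vacuolar proton pump, the multiples were 0.909 and 1.31, at vps-20, of the ESCRT machinery, 0.806 and 0.573, and at vha-20 0.582 and 0.659.

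RNA decay and Integrator genes had 5 members among 30 promoter-proximal summits (16.7%), beside 10.4% over all. Besides ints-4, xrn-2, the nuclear 5′-to-3′ exonuclease, had multiples of 2.01 and 1.43 with a summit 38 bp inside in coding sequence. At exos-1, a subunit of the RNA exosome, they were 0.851 and 0.896, and the summit was at 104 bp in both replicates. The 5 also include ints-3 and lsm-6, both among the members of very low signal described further on. Counts this small are given with no test.

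Members at ribosomal protein genes lay in coding exons, as did 45.2% of all members. Of 45 promoter-proximal summits at cytosolic ribosomal protein genes, 4 were members (8.89%), beside 10.4% over all. Their summits lay 173 bp (rla-1), 146 bp (rps-16), 85 bp (rpl-27) and 113 bp (rpl-16) past the 5′ end, all in coding exons, and a same-strand gene ended 105, 109, 119 and 105 bp before them. The multiples were 2.73 and 1.12 at rla-1, 1.49 and 1.13 at rps-16, 1.18 and 0.548 at rpl-27 and 0.671 and 0.94 at rpl-16. Mitochondrial ribosomal protein genes had 3 of 24 (12.5%). At mrpl-50, mrpl-48 and mrps-18.C the gap was 25, 93 and 92 bp, and all summits were in coding exons. These summits lay 73, 120 and 65 bp past the 5′ end, beside a median of 85 bp over all coding-exon members. The mean multiples were 0.738 ± 0.129, 0.659 ± 0.0132 and 0.586 ± 0.0609. All 7 genes had a same-strand gene ending within 500 bp before them, beside 68.7% of coding-exon members and 50.7% of all members. The share at other ribosomal protein genes was not computed.

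Members at cell division and chromatin genes had mean multiples from 0.534 to 1.3. Mitosis and spindle genes had 3 of 39 (7.69%): knl-2, which loads the centromeric histone, with 1.37 and 1.23, tpxl-1, an activator of Aurora A kinase, with 0.8 and 0.644, and emb-30, of the anaphase-promoting complex, with 0.645 and 0.496. Chromatin regulators had 4 of 46 (8.7%). At swsn-9, a subunit of a SWI/SNF remodeller, the multiples were 1.42 and 0.957, at sir-2.1, a sirtuin deacetylase, 0.892 and 0.553, and at cec-3 the values given above. The list of cell death and engulfment genes, the process by which mcd-1 was found, had 1 member among 10 summits. It was crn-7, a nuclease gene, with multiples of 0.536 and 0.531, in neither replicate's own list.

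In all, 46 members were in at least 1 of 30 gene lists, and 19 lists held a member. The other 11 lists held none, beside 10.4% over all promoter-proximal summits. They had 34 such summits at ubiquitin conjugation genes, 18 at translation factor genes, 17 at tubulin and motor genes, 16 at nucleoporin and nuclear transport genes and 13 at meiosis genes. There were 11 at nucleolus and ribosome biogenesis genes, 11 at chemoreceptor genes, 6 at DRM complex and synMuv B genes, 4 at collagen genes, 2 at neuropeptide and insulin genes and 1 at ion channel genes. These counts are small, and no test of them was made.

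Reproducibility followed the signal. Both replicates' own thresholded lists held 107 members (48.9%), against 59% of all conservative peaks, 75.2% of summits 1 to 200 bp upstream and 67.1% of those farther upstream. Neither list held 51 members (23.3%), and the highest signal among these was 118. The share in neither list was 18.1% over all conservative peaks, and 8.09% and 12.6% at the nearer and farther upstream summits. By place, the share in both lists was 67% in untranslated exons and 33.3% in coding exons. Replicate multiples were more than 2-fold apart at 9 of 217 members (4.15%), close to the 4.79% of all conservative peaks matched in both. The conservative list was itself limited by agreement between the replicates, so these shares do not measure the stability of the peaks. The median coefficient of variation was 14.4%. The largest differences were at gsa-1, a G protein alpha subunit, with 0.0813 and 1.93, at K03B4.2 with 0.432 and 1.2, at T26A5.8 with 0.497 and 1.36, at rla-1, and at fndc-1, a mitophagy receptor, with 0.43 and 1.02. At gsa-1 the matched summits lay 34 bp inside in replicate 1 and 121 bp upstream in replicate 2, so its values need not belong to the same peak.

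The summit itself moved between replicates by more than it did upstream. The replicate summits lay a median of 27 bp apart at members, and 14 and 17 bp apart at the nearer and farther upstream summits. In 156 of 217 members (71.9%) both replicate summits were inside by the same rule, and in 172 (79.3%) both were at or past it. In 16 (7.37%) both were upstream. Of the summits 1 to 200 bp upstream, 87.7% kept that position in both replicates. The median distance was 64 bp by the replicate 1 summits and 79 bp by those of replicate 2. A fixed peak width of 370 bp with the summit in the middle was recorded for 142 members (64.8%), against 38% of the other promoter-proximal peaks with this width.

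**Figure D5:**
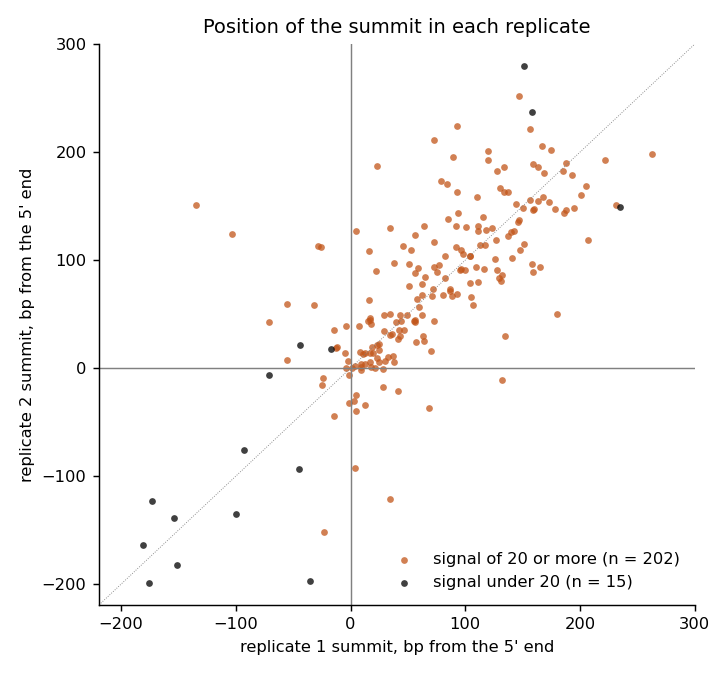
Distance of the summit from the 5′ end (bp) in replicate 1 (horizontal) against replicate 2 (vertical) for the 217 members matched in both, with members of signal under 20 in black and the others in orange. Points in the upper right were at or past the 5′ end in both replicates (172 members), and those in the lower left were upstream in both (16 members), 10 of them of signal under 20.

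The 15 members with a signal under 20 differed from the rest in this respect. Each had another conservative summit of more than 2 times its signal within 1000 bp, and each shared its matched replicate peak with another conservative peak. Their replicate multiples, with medians of 0.976 and 0.898, were therefore those of a neighbouring peak. At ints-3 the deposited signal was 19.8, while the multiples were 4.42 and 2.07 and the replicate summits lay 154 and 139 bp upstream. In 10 of the 15 both replicate summits were upstream, and 12 of the 15 summits were in coding exons. In all, 31 members shared a replicate peak in this way. Without the 15, the median multiple was 0.807 and both replicate summits were inside at 77.2%.

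The limits of the window cut through a continuous range of positions. The members closest to the 5′ end were at W02B3.3, F25H9.6 and rsa-2, at 0, 1 and 2 bp, with mean multiples of 0.711, 2.21 and 1.54. The nearest summits outside were at Y39E4B.10 and cdk-7, each 1 bp upstream, and micu-1, 2 bp upstream, with 7.19, 5.8 and 16. At the inner limit the last members were F17C11.4, cysl-2 and F53E10.1, at 193, 195 and 196 bp, with 0.739, 0.501 and 0.525. The first summits past it were at hrpk-1, alkb-7 and snrp-200, from 200 to 205 bp, with 3.55, 0.807 and 0.648.

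The count of members depended on which 5′ ends were used. RefSeq gene models gave 203 members, 196 of them shared, and the list of pooled replicates gave 238. When the 5′ ends of noncoding genes were allowed to compete, 587 of 2716 summits (21.6%) lay just inside the nearest end, among them 218 of the 219.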

How the data were processed

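Chromatin immunoprecipitation peaks of 2 replicates were used as deposited, in narrowPeak lists on ce11. Each peak carries a signal value that the authors' peak caller gave; its scaling, the aligner and the caller are not stated in any source used. Per the file headers and README, the conservative list was limited by irreproducible discovery rate from both replicates, and each replicate has its own thresholded and ranked lists. The control experiment and 4 per-sample signal columns without a sample name were not used here.

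Summits were set against Ensembl release 115 gene models of WBcel235 with Python 3.11. Members, gene lists and GAGCG were chosen with earlier results of these data known, and the spaced form and the gap of 50 to 150 bp after seeing the values. Genes were named as the 12 strongest members with a symbol, up to 3 per list with 3 or more members, all cell death and DRM members, the 5 largest replicate differences and 3 on each side of each limit. Other genes named stand with a printed sequence, complete a list or are said to be chosen from their values. Assignment, matching and motif search were checked on simulated data and gave no error there. The simulated summits stood at genes with no other 5′ end nearby, and no replicate peak was shared. The choice among several 5′ ends and the match to shared peaks were therefore not checked. Values are mean ± SD over 2 replicates, with no test. Alternatives changed the list, gene models, window, signal limit and replicates.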

Additional observations from a re-analysis of the deposited data

How the results depend on the processing

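Of 56 recomputed values, 37 stayed within 1.5 times the count, the 95% Wilson interval of the share or the replicate SD. The number of members became 141 (6.71% of promoter-proximal summits) for 0 to 99 bp, 79 (6.07%) for peaks at or above the median signal and 587 (21.6%) with noncoding gene starts. The median multiple became 0.772 on the pooled list, 0.761 with the starts of all transcripts and 1.58 at or above the median signal, where the median distance was 63 bp, the share in both own lists 93.7% and the GAGCG share 41.8%. A reciprocal overlap of 50% gave 32.4% in both own lists and 78.3% with both replicate summits inside. A window of 100 bases on either side of the summit gave GAGCG in 37.4%. With 1 replicate left out, and so the list of the other alone, the number ranged from 157 to 185, the share inside from 9.37% to 9.45%, the median multiple from 0.96 to 1.08, the median distance from 68 to 73 bp, the share in both own lists from 60.5% to 77.1%, the X share from 5.95% to 7.64% and the GAGCG share from 28.1% to 30.6%. With 1 replicate left out, every member is in the other replicate's own list by construction. The share in both own lists then counts only overlap with the list of the replicate left out. The cause of the other shifts was not tested. The signal limit of 20 was added after seeing the data. No paired analysis was possible because the samples form 1 group.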
